A study of Homo sapiens with 6 samples.

Results

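The replication-dependent histone genes were examined for occupancy by PLAG1-S and USF2. They were taken as the protein-coding RefSeq genes on chromosomes 1 and 6 whose symbols name an H1, H2A, H2B, H3 or H4 gene of the clustered families, which gave 68 genes, 13 on chromosome 1 and 55 on chromosome 6, out of 20033 protein-coding genes in the annotation. A peak was assigned to a gene when its edge lay within 1 kb of the gene. All libraries came from K562, an established human leukemia line, in clones #4 and #5, both of which co-overexpress Flag-PLAG1-S and USF2, so that every library is from a single clone with raised levels of both factors, and no library of unmodified K562 was analysed here. PLAG1-S, the short form of the zinc finger protein PLAG1, was immunoprecipitated with anti-Flag antibody and USF2, a helix-loop-helix leucine zipper protein that binds E-boxes, with anti-USF2, giving 2 libraries per factor, one from each clone. Each clone also had an input library. Per the labels the depth was 42.5 M reads of 50 bp per immunoprecipitation and 55 M per input. The peak lists hold no expression values, so neither the identity of the line nor the expression of the histone genes was checked here.

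Replication-dependent histone genes supply the core histones (H2A, H2B, H3 and H4) and the linker histone H1 that package newly copied DNA, and are transcribed mostly in S phase. They are short, have no introns in their main transcripts, and their mRNAs end in a stem-loop rather than a poly(A) tail. NPAT, which gathers at these genes in nuclear histone locus bodies, is their general co-activator, HINFP binds H4 promoters and OCT1 (POU2F1) binds the octamer of H2B promoters.

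The promoters of 4 co-bound genes and of a gene without any listed peak are shown for the elements they hold. Of the co-bound genes of at most 1 kb with a USF2 summit within 500 bp of their start, the gene with the largest clone 4 USF2 fold was taken from the H1, H2B, H3 and H4 families. Each window runs from 250 bases before the annotated start to 50 after it, 5′ to 3′ along the gene, from RefSeq on GRCh38.p14. Capitals mark matches on either strand to the elements named in the paragraphs that follow the sequences, most of them the classical histone elements.
H1-4 (chr6:26156079-26156378, + strand): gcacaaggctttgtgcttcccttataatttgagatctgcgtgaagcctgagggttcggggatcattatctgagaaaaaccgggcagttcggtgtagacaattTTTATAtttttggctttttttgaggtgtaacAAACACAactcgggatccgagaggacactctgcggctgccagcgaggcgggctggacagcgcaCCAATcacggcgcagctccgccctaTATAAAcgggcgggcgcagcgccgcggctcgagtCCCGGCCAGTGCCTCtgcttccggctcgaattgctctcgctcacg
H2BC8 (chr6:26216639-26216938, - strand): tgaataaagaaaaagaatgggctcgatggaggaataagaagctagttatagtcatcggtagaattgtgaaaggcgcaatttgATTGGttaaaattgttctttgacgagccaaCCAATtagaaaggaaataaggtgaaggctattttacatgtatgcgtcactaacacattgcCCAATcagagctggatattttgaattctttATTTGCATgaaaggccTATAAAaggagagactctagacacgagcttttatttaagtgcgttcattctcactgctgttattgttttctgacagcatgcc
H3C2 (chr6:26032050-26032349, - strand): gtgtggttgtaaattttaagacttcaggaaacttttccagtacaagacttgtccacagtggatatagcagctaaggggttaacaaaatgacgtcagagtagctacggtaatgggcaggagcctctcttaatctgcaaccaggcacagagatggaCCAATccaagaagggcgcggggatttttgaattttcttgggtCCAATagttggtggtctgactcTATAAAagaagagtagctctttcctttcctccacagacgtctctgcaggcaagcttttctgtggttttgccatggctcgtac
H4C12 (chr6:27831511-27831810, - strand): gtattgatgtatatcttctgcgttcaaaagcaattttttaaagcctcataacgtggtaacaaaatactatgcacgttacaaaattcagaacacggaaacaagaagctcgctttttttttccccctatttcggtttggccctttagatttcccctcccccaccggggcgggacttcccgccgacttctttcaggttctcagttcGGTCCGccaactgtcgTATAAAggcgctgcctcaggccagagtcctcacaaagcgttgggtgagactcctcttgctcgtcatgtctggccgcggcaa
H2BC3 (chr6:26043664-26043963, - strand): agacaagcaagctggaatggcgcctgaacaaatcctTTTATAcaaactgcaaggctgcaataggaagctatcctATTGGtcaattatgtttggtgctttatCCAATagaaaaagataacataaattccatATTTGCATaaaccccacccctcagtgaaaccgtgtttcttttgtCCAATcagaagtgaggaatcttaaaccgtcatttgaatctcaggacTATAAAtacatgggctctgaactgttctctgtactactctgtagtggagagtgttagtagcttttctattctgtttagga

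A window was held for 63 of the 68 histone genes. The central E-box bound by USF proteins, CACGTG, was in 0 of the 63, whereas 10.9% of 15842 protein-coding genes with a window had it. Among the 1208 protein-coding genes with a USF2 peak of both clones within 1 kb of a start, 57.5% had CACGTG in a window, and among the 33 histone genes of that kind 0 had it. The bipartite PLAG1 element, searched as GAGGC or GGGGC followed by 6 to 8 bases and GGG, was in 2 histone windows (H1-4 and H1-6) compared with 45.4% of protein-coding genes. In H1-4 it lay 5 bases after the start on the opposite strand, inside the clone 4 PLAG1-S peak at chr6:26156288-26156856. It lay outside the clone 5 PLAG1-S peak at chr6:26156447-26156779. The summits of these peaks were 170 and 218 bp after the start.

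The classical histone elements were present in the same windows. TATAAA was in 42 of the 63 (66.7%, against 12.4% of protein-coding genes) and CCAAT in 54 (85.7%, against 42.1%). The octamer ATTTGCAT was in 26, of which 14 were H2B and 11 H2A genes, and in 2.22% of protein-coding genes. The H1 box AAACACA was in all 6 H1 windows and in 3 others, with 5.83% of protein-coding genes holding it, and GGTCCG of the H4 element in 11 of 12 H4 windows against 18% of protein-coding genes. In the sequences above TATAAA began 29 bases before the start of H1-4, 32 before that of H2BC8 and H3C2, 31 before that of H4C12 and 30 before that of H2BC3. The window of H2BC3, a gene without a peak, held TATAAA and the octamer, and also CCAAT, as did that of the co-bound H2BC8. These matches describe letters within the windows only, and the bases under most of the summits described later were outside them.

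USF2 peaks were found at more of the histone genes than PLAG1-S peaks were. A USF2 peak lay within 1 kb of 46 of the 68 genes (67.6%) in clone 4, where 23.3% of all protein-coding genes had one, and of 36 genes (52.9%) in clone 5, where the background was 12.4%. PLAG1-S peaks were at 38 genes (55.9%) in clone 4, with a background of 61.6%, and at 34 genes (50.0%) in clone 5, with a background of 55.9%. Thus the share with PLAG1-S was near that of protein-coding genes as a whole, and slightly below it, in each clone. The share with USF2 was above it in each clone. Gene length, which differs between the sets, is taken up in the next paragraph.

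Peaks of clone 4 that shared at least 1 bp with a peak called for that factor in clone 5 were taken as reproducible. Reproducible USF2 peaks were at 36 histone genes (52.9%), compared with 9.4% of protein-coding genes, and reproducible PLAG1-S peaks at 27 (39.7%), compared with 49.5%. Co-bound peaks, reproducible PLAG1-S peaks with the edge of a reproducible USF2 peak within 100 bp, were at 17 genes (25%), compared with 9.1%. That count rested on the clones and on the distance rule: it was 32 in clone 4 alone, 22 in clone 5 alone, and 4 when the summits themselves had to lie within 100 bp. No reproducible peak of either factor was found at 26 histone genes. Of these, 20 (29.4% of the 68) had no peak in any of the 4 lists, as did 33.5% of protein-coding genes. The other 6 had listed peaks but no reproducible one. H3C1, H4C1 and H2AC16 had peaks in clone 4 only. H2AC15 and H2BC15 had USF2 in clone 4 and PLAG1-S in clone 5, and H2AC4 had separate PLAG1-S peaks in the clones. Since histone genes have a median length of 494.5 bp and protein-coding genes one of 24130 bp, the window around them is much shorter. Among the 468 other protein-coding genes of at most 1 kb the background was 0.641% for USF2, 6.2% for PLAG1-S and 0.427% for co-bound peaks. Counted instead within 1 kb of a start in the promoter table, which removes gene length, 33 of 63 histone genes had USF2 against a background of 7.63%, 25 (39.7%) had PLAG1-S against 41.8%, and 15 were co-bound against 7.53%. The PLAG1-S share was thus near the background when counted by start, and above that of the other short genes. With 2 libraries per factor these shares carry no test, and neighbouring genes often shared a peak, so the genes are not independent.

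The reproducible peaks at histone genes were 33 for USF2 and 28 for PLAG1-S, and 20 and 12 of them respectively lay within 1 kb of more than 1 histone gene. USF2 peaks at these genes were shared by the clones more often than the lists were as a whole: 36 of 37 clone 5 peaks (97.3%) overlapped a clone 4 peak, compared with 55.7% of the clone 5 list, and 70.2% of clone 4 peaks overlapped a clone 5 peak, compared with 25.8%. For PLAG1-S the corresponding shares were 79.4% against 72.6% in clone 5 and 53.8% against 57.1% in clone 4. USF2 peaks here were also broader than those of the whole lists, with a median width of 432 bp in clone 4 and 350 bp in clone 5, when the medians of the lists were 209 bp and 212 bp. They also rested on more fragments, a median of 33 and 28 against 20.5 and 23 for the lists. The part of this in their width was not tested.

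**Figure D1:**
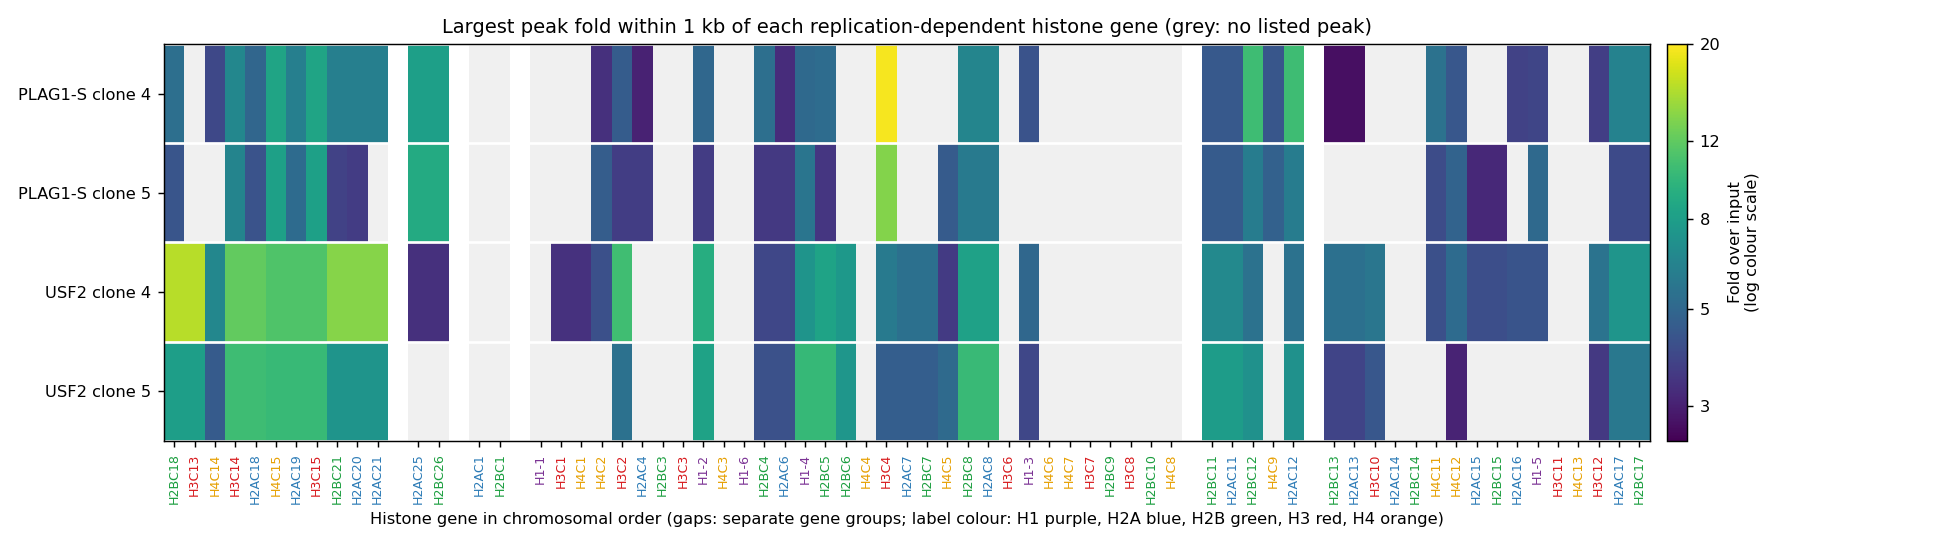
Each column is a histone gene in chromosomal order and each row a library, with the colour giving the largest fold over input of any peak within 1 kb on a log scale and grey marking no listed peak. USF2 signal covers all 11 genes of the first chromosome 1 group, and a run of 7 genes from H4C6 to H4C8 on chromosome 6 is grey in every library.

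The genes fell into 6 groups separated by more than 200 kb. At chr1:149782689-149887965 all 11 genes had a reproducible USF2 peak, 7 a reproducible PLAG1-S peak, and 6 were co-bound. At chr6:26017032-26285534, the largest group, 14 of 32 genes had USF2, 8 had PLAG1-S, 4 were co-bound and 14 had no peak. Within it lay H4C6, H4C7, H3C7, H2BC9, H3C8, H2BC10 and H4C8, consecutive over 45.1 kb, with no peak in any library. At chr6:27132316-27147562 all 5 genes had PLAG1-S and 4 had USF2. At chr6:27807479-27893891 the counts were 5 with PLAG1-S and 7 with USF2 of 16 genes. The pair H2AC25 and H2BC26 at chr1:228457364-228458558 had PLAG1-S only, and the pair H2AC1 and H2BC1 at chr6:25726063-25727345, which encodes testis histones, had neither factor.

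Where both factors had reproducible peaks near the same gene, USF2 usually had the larger fold at the histone genes, and PLAG1-S had it nearly everywhere else. Fold here is the fragment pileup at the summit over the local input background. The largest peaks of the factors need not lie at the same place in a gene, and neighbouring genes can share them. At H2BC18 the clone 4 PLAG1-S summit lay 19725 bp after the start, and the USF2 peak was the one at H3C13. The largest USF2 fold of H3C15 and H4C15 was that of the peak at H2AC19. The USF2 peaks over H3C15 had 6.085 and 6.58 in clones 4 and 5, below the PLAG1-S folds of 8.44 and 8.18. Over H3C14 the clone 5 USF2 peak had 3.41, below the PLAG1-S fold of 6.41. These genes are still counted below as having the larger USF2 fold. Of 21 such histone genes, the largest USF2 fold exceeded the largest PLAG1-S fold at 17 in clone 4, at 19 in clone 5 and at 16 (76.2%) in both clones. It did so in both clones at 23 (1.25%) of the 1844 protein-coding genes with both factors. The 1844 include the 21 histone genes, so 16 of those 23 were histone genes. The median PLAG1-S fold over the 21 genes was 6.13 in clone 4 and 4.85 in clone 5, below the medians of 21.0 and 16.5 over the 1844 genes. The median USF2 fold was 7.42 in clone 4 and 7.88 in clone 5, beside 8.59 and 6.22. The PLAG1-S medians were thus far below those over the 1844 genes, and the USF2 medians near them. The 5 histone genes outside the pattern were H3C4, H2BC12, H2AC12, H2BC4 and H4C12.

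**Figure D2:**
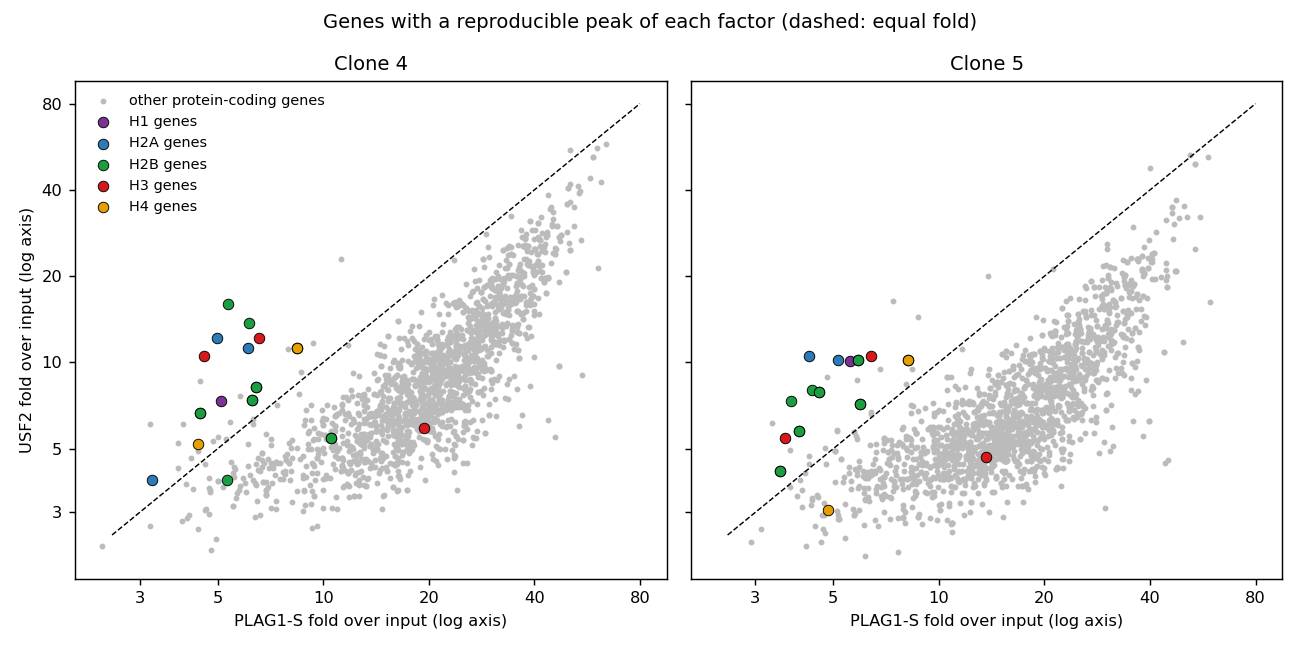
Each point is a gene with a reproducible peak of both factors, placed by its largest PLAG1-S fold (x) and USF2 fold (y) on log axes in clone 4 and clone 5, with histone genes coloured by family and the dashed line marking equal folds. Of the 21 histone genes, 17 in clone 4 and 19 in clone 5 lie above the line, while nearly all of the grey genes lie below it.

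USF2 without PLAG1-S was also more frequent. Of the 33 reproducible USF2 peaks at histone genes, 21 (63.6%) had no reproducible PLAG1-S peak within 100 bp, as against 12.6% of all 2409 reproducible USF2 peaks, and 8 (24.2%) had no PLAG1-S peak of either clone there, as against 6.56%.

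The summits lay inside the genes rather than at their promoters. Of 32 reproducible USF2 summits within 1 kb of a histone gene start, 29 (90.6%) were 50 to 500 bp after it, 16 of them between 300 and 400 bp, and 0 were in the 300-base promoter window. Over all protein-coding genes 20.8% of 1089 USF2 summits were 50 to 500 bp after a start and 61.7% were in the window. For PLAG1-S, 17 of 25 summits (68%) were 50 to 500 bp after a histone gene start, 10 of them between 100 and 200 bp, and 1 was in the window (that of H4C9, 47 bp after the start), compared with 34% and 39.3% of 7456 summits over all genes. The median position was 333.5 bp after the start for USF2 and 170 bp after it for PLAG1-S at histone genes. Of the 60 histone genes no longer than 1 kb, the body of one or another held 24 of the 33 USF2 summits and 16 of the 28 PLAG1-S summits.

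Co-bound peaks at histone genes were neighbours more than they were coincident. The 17 distinct co-bound PLAG1-S peaks had their nearest USF2 summit at a median of 254 bp, from 7 bp to 632 bp, and 2 of them (11.8%) within 50 bp. Some of these peaks shared a USF2 summit, so they are not 17 separate sites. The USF2 summit in H2AC18 was the nearest one for PLAG1-S summits 27, 319 and 329 bp away. Across all 2108 co-bound peaks the median was 15 bp and 81.9% were within 50 bp. The 2 close sites were in the H2BC8 and H2AC8 pair, with summits 7 bp apart, and at H2AC18, 27 bp apart.

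**Figure D3:**
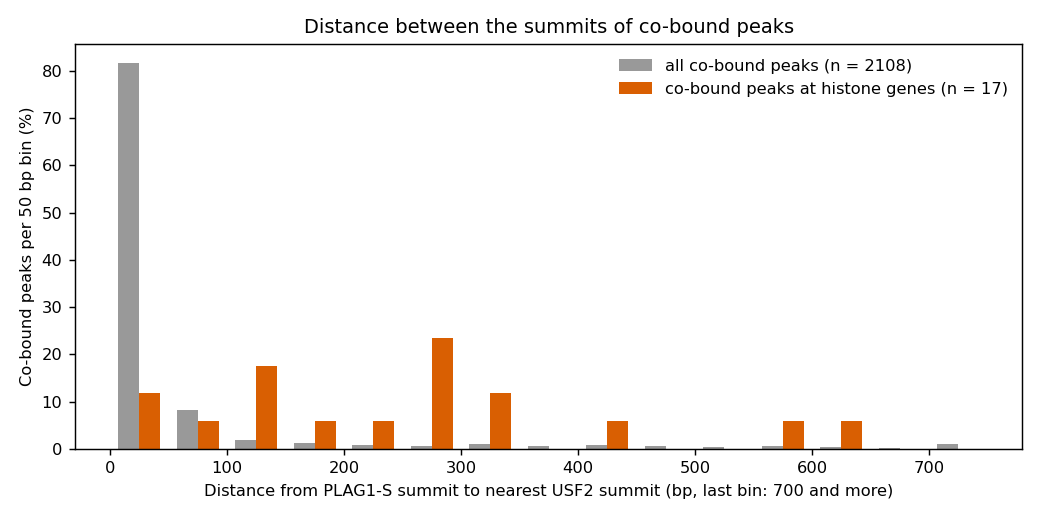
The bars give the percentage of co-bound peaks per 50 bp bin of distance between the PLAG1-S summit and the nearest USF2 summit, for the 17 peaks at histone genes (orange) and all 2108 co-bound peaks (grey). Most grey peaks fall in the first bin, and the orange ones spread out to 632 bp.

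The H1 genes, which encode linker histones, included 3 of 6 with reproducible USF2 and 2 with reproducible PLAG1-S. H1-4 was the co-bound one, with a PLAG1-S fold of 5.11 in clone 4 and 5.59 in clone 5 and a USF2 fold of 7.36 and 10.1. Behind these were 37 and 33 PLAG1-S fragments and 57 and 58 USF2 fragments, over backgrounds of 4.85 to 6.89 fragments. At H1-2 the USF2 fold was 9.15 in clone 4 and 8.31 in clone 5, and PLAG1-S peaks of 5.02 and 3.62 in the clones did not overlap each other. H1-3 had USF2 at 5.01 and 3.88. H1-5 had reproducible PLAG1-S at 3.87 and 5.10 and USF2 in clone 4 only, at 4.29. H1-1 and H1-6, the latter a testis linker histone, had no peak. The USF2 summits of H1-2, H1-3 and H1-4 were within the genes, 303 to 633 bp after their starts.

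Among H2A genes, 11 of 17 had reproducible USF2, 8 had PLAG1-S, 6 were co-bound and 2 (H2AC1 and H2AC14) had no peak. The largest clone 4 USF2 fold in this family, 13.8, was at H2AC20, shared with H2AC21 and H2BC21, where clone 5 had 7.36. The largest in clone 5 was 10.5, at H2AC18. The 13.8 and 7.36 came from separate sites, since the clone 4 summit was 346 bp after the start of H2AC20 and the clone 5 summit inside H2BC21. The clone 5 peaks that overlapped the clone 4 peak had folds of only 3.70 (17 fragments) and 3.80 (15 fragments). H2AC18 and H2AC19, whose promoter windows are 99.3% identical, had USF2 at 12.1 and 10.5, and at 11.3 and 10.2, in clone 4 and clone 5. H2AC8 had PLAG1-S at 6.44 and 5.87 and USF2 at 8.24 and 10.2, and H2AC11 had PLAG1-S at 4.46 and 4.54 and USF2 at 6.68 and 7.88. H2AC17 had PLAG1-S at 6.28 and 4.00 and USF2 at 7.42 and 5.76. At H2AC8, H2AC11 and H2AC17 the largest USF2 fold within 1 kb exceeded the PLAG1-S fold in both clones. However, the USF2 values of H2AC17 came from summits inside H2BC17, and the 10.2 of H2AC8 from one inside H2BC8. Within H2AC17 USF2 had 6.035 and 5.68, so that PLAG1-S was the larger there in clone 4. Within H2AC8 the clone 5 USF2 fold was 6.43. The other H2A genes with reproducible USF2 were H2AC6, H2AC7, H2AC12 and H2AC13, with clone 4 folds of 3.89, 5.37, 5.47 and 5.40. The folds of H2AC6, H2AC7 and H2AC13 came from summits inside their neighbours H2BC4, H2BC7 and H2BC13. Within H2AC7 itself the clone 4 fold was 3.41. Within H2AC13 it was 3.01, listed in clone 4 only, and no USF2 summit lay within H2AC6.

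H2AC25 went the other way. Its PLAG1-S peak, shared with H2BC26, had a fold of 8.10 in clone 4 and 8.92 in clone 5 (81 and 76 fragments, with 95% Poisson intervals of 64.3 to 101 and 59.9 to 95.1 that cover counting error only). USF2 was listed there in clone 4 at 3.34 and not at all in clone 5. The local background of 9.12 fragments in clone 4 was the highest under a PLAG1-S peak at a histone gene in that clone, equalled by one at H2BC11, and its part in the value was not tested.

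Among H2B genes, 11 of 18 had reproducible USF2, 8 had PLAG1-S, 5 were co-bound and 5 had no peak (H2BC1, H2BC3, H2BC9, H2BC10 and H2BC14). H2BC8 shared the peaks of H2AC8 across the 233 bp between their divergent starts. H2BC6 had a USF2 fold of 7.58 in clone 4 and 7.43 in clone 5, with 39 and 37 fragments, and no PLAG1-S peak in either clone. H2BC5 had USF2 at 8.38 and 10.1, the latter from the peak at H1-4, while the clone 5 peak inside H2BC5 had 8.65. H2BC7 had USF2 alone, at 5.37 and 4.66. H2BC13 had USF2 at 5.40 and 3.82, and H2BC4 at 3.89 and 4.19. H2BC12 had the highest clone 4 PLAG1-S fold of the family, 10.5 (5.97 in clone 5, where H2BC26 was highest at 8.92), 809 bp after its start at chr6:27145808-27146270. Its largest USF2 folds, 5.47 in clone 4 and 7.15 in clone 5, came from separate sites. The former was at H2AC12, where clone 5 had 4.81, and the latter inside H2BC12, where clone 4 had 4.68. The largest USF2 peak of H2BC18, 15.9 and 7.99, was the one at its neighbour H3C13, within 1 kb of the H2BC18 start. H2BC11 and H2BC17 shared the co-bound peaks of H2AC11 and H2AC17. Divergent pairs numbered 13, of which 11 joined an H2A and an H2B gene and 2 involved an H3 gene, with starts 194 to 979 bp apart, so that the windows of a pair overlapped. In 8 of the 13 both genes had reproducible USF2, in 5 neither had it and in 0 did only one have it. Because a single peak usually counted for both genes, this agreement follows largely from the windows. The 13 pairs hold 25 genes, as H2BC7 was paired with both H2AC7 and H3C4.

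Among H3 genes, 7 of 13 had reproducible USF2, 4 had PLAG1-S, 3 were co-bound and 5 had no peak (H3C3, H3C6, H3C7, H3C8 and H3C11). The highest clone 4 USF2 fold at a histone gene, 15.9, was at H3C13, where clone 5 had 7.99. The clone 5 maximum was 10.5, from a peak with its summit inside H2AC18 and its edge within 1 kb of H3C14. The H3C13 values came from 64 and 30 fragments (95% Poisson intervals of 49.3 to 81.7 and 20.2 to 42.8), with summits 331 and 305 bp after the start and no PLAG1-S peak. H3C2 had USF2 at 10.6 and 5.45 and PLAG1-S at 4.56 and 3.64. In clone 4 these were 57 USF2 fragments (43.2 to 73.9) and 24 PLAG1-S fragments (15.4 to 35.7) over nearly equal backgrounds of 4.49 and 4.48, and in clone 5 the intervals of 28 and 23 fragments overlapped. H3C14 and H3C15, whose windows are 97.3% identical, had PLAG1-S at 6.56 and 6.41, and at 8.44 and 8.18, past their ends. H3C10 and H3C12 had reproducible USF2 alone, with clone 4 folds of 5.66 and 5.52.

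The strongest PLAG1-S peak at a histone gene was next to H3C4 and fell outside it. It had a fold of 19.4 in clone 4 and 13.6 in clone 5, with 107 and 71 fragments, and ranked in the top 3.34% and 5.28% of those lists. At chr6:26195641-26196423 its clone 4 summit was beyond the 3′ end of the gene, and the nearest annotated gene was the pseudogene H1-12P at 345 bp. A USF2 peak of 5.91 coincided with it in clone 4 only. USF2 peaks found in both clones lay within H3C4 itself, with the largest at 4.79 in clone 4 and 4.67 in clone 5.

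Among H4 genes the share with reproducible USF2 was the lowest of the 5 families. Of 14 genes, 4 had reproducible USF2, 5 had PLAG1-S, 2 were co-bound and 6 had no peak (H4C3, H4C4, H4C6, H4C7, H4C8 and H4C13). H4C12 was co-bound with small folds, PLAG1-S at 4.39 and 4.85 and USF2 at 5.18 and 3.07. H4C11, whose window is 98.3% identical to that of H4C12, had PLAG1-S at 5.46 and 4.04 and USF2 in clone 4 only, at 4.15. H4C2 had PLAG1-S at 3.33 and 4.60 and H4C9 at 4.35 and 4.75, both without reproducible USF2. H4C5 had USF2 at 3.57 and 5.15. H4C14 and H4C15 have identical windows. H4C14 had USF2 at 6.54 and 4.55, 301 and 332 bp after its start, while the largest peaks of H4C15, PLAG1-S at 8.44 and USF2 at 11.3 in clone 4, lay 7838 and 9641 bp into its 16753 bp annotation, at H3C15 and H2AC19. At its own start H4C15 had reproducible PLAG1-S, with clone 4 folds of 4.35 and 5.10 at 61 and 340 bp and a clone 5 fold of 2.82 at 153 bp, and USF2 in clone 4 only, at 5.78 and 369 bp. How reads that match such copies equally were placed is not given in the sources used here, so the split between copies is uncertain.

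As a group the PLAG1-S peaks were weak. The 28 reproducible PLAG1-S peaks had a median clone 4 fold of 4.53, from 3.19 to 19.4, against a median of 6.39 over all reproducible PLAG1-S peaks. For the 33 USF2 peaks the median was 6.44, from 3.41 to 15.9, close to the 6.80 of all reproducible USF2 peaks. The local background was raised at histone genes: its median was 4.57 and 4.28 fragments under PLAG1-S peaks in clones 4 and 5 (3.67 and 3.41 for the lists), and 4.70 and 4.44 under USF2 peaks (3.76 and 3.78). Its part in the folds was not tested.

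Genes that regulate or process histone transcripts numbered 23, of which 15 had reproducible PLAG1-S (65.2%, against 49.5% of protein-coding genes) and 3 had USF2 (13%, against 9.4%). The same 3 were co-bound, with a background of 9.1%. HINFP, the H4 promoter factor, had PLAG1-S at 35.7 in clone 4 and 34 in clone 5 and USF2 at 12.8 and 11.3. NCBP1, a cap-binding subunit, had PLAG1-S at 14.6 and 11.2 and USF2 at 9.71 and 7.24, and SRRT, a partner of the cap-binding complex, PLAG1-S at 14.1 and 8.62 and USF2 at 5.75 and 5.67. At each the PLAG1-S fold was the larger. SLBP, which binds the stem-loop, had PLAG1-S at 6.82 and 5.97 and no USF2 peak. NPAT and CASP8AP2, a further component of histone locus bodies, had PLAG1-S in clone 4 only, at 5.47 and 4.84.

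Of 14 histone genes outside these families or clusters, 10 had reproducible PLAG1-S (71.4%, against 49.5% of protein-coding genes), 4 had USF2 (28.6%, against 9.4%) and 3 were co-bound (21.4%, against 9.1%). H2AZ1 had PLAG1-S at 18.5 and 14.6 and USF2 at 8.33 and 6.18. H1-10, MACROH2A2 and CENPA had PLAG1-S at 13.2, 10.8 and 9.90 in clone 4 and at 13.2, 6.52 and 10.4 in clone 5. H4C16, H2AJ and H3-5 had no peak. Chosen after its values were seen, H2BC12L, a copy of a clustered H2B gene on chromosome 21, had USF2 alone, at 5.69 and 5.14. H2AX and H3-3B, chosen likewise, had PLAG1-S at 6.31 and 7.37 and USF2 at 6.34 and 7.09 in clone 4, and PLAG1-S at 4.27 and 6.63 and USF2 at 4.43 and 5.20 in clone 5.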

How the data were processed

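Chromatin immunoprecipitation sequencing of Flag-PLAG1-S and USF2 in K562 clones #4 and #5 was deposited as a MACS2 peak list for each library. Per the labels the processing list names HISAT2 2.0.4, MACS2, SAMtools, bedtools, cutadapt, FastQC and HOMER, and the build was hg38. Peaks were called by the authors for each clone separately against merged inputs. The deposited lists give each peak's score, the fold over local background at its summit as a ratio, and −log10 p and −log10 q. They hold 37574 and 29889 PLAG1-S peaks, to a q of 0.0099 and 0.00974, and 9338 and 4369 USF2 peaks, to a q of 0.0494 and 0.0477. MACS2's version and its read filters are not given in the sources used here.

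Fold and p were solved together for the whole fragments and background at each summit, which gave a solution for at least 99.9% of peaks in every list. This step returned the planted value for 100% of 1999 simulated PLAG1-S clone 4 summits. Genes were RefSeq GRCh38.p14 protein-coding genes, with starts and strands from a promoter table that held 63 members. Genes were named when they had a reproducible USF2 or co-bound peak, one of the 8 largest PLAG1-S folds, the largest fold of a family, or no peak, and further members were named to complete counts after their values were seen. Genes of other lists were named when co-bound, in a set of known regulators, or among the 4 largest folds. The members and lists were chosen with earlier results of these data known. With 2 clones per factor an exact permutation test cannot give a p under 0.333, so values were described without tests. Python 3.11.15 with numpy 2.4.6, pandas 2.3.3, scipy 1.17.1 and matplotlib 3.10.9 was used. Windows, q minimum, clone overlap, near-identical copies, gene starts and each clone alone were varied.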

Additional observations from a re-analysis of the deposited data

How the results depend on the processing

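Of 52 recomputed values for 7 results, 37 stayed within 1.5 times of the reported count (or the spread between clones for a median). The count of co-bound histone genes was the least stable. It was 17 as reported, 4 when the summits had to lie within 100 bp of each other, 10 with a summit within 500 bp of the gene start, 7 with −log10 q of at least 10, 11 without the 8 genes with near-identical copies and 37 with peaks of either clone. Counted within each clone and averaged, which keeps the pairing of libraries from the same clone (the replicate block), it was 27, and it was 22 in clone 5 alone and 32 in clone 4 alone. Genes with PLAG1-S numbered 27, 34 to 38 with a clone alone, 41 with peaks of either clone and 11 with −log10 q of at least 10, at which 32 genes had no peak. Genes with USF2 numbered 36, 36 to 46 with a clone alone, and 25 to 46 over all settings tried. Genes without a peak numbered 20 to 23 with a clone alone. The median PLAG1-S fold of 4.53 became 4.6 in clone 5, 4.43 for summits within 500 bp of a start and 6.5 with −log10 q of at least 10, and the median summit distance of 329.5 bp became 332 bp in clone 5 and 531.5 bp with that q. The 0 for CACGTG was also 0 over genes with PLAG1-S. Counts within 1 kb of a start and for genes of at most 1 kb were chosen after seeing the data and stayed within 1.5 times. The cause of these shifts was not tested. Depth limits the weaker peaks, which rest on about 20 fragments.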

Other observations

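Histone chaperones, the proteins that escort histones to and from DNA, were examined as a further list. Of 20 genes, 18 had a reproducible PLAG1-S peak (90%, against 49.5% of protein-coding genes) and 5 a reproducible USF2 peak (25%, against 9.4%), and those 5 (RBBP4, SUPT16H, UBN1, CHAF1A and HIRA) were co-bound (25%, against 9.1%). UBN1, a subunit of the complex that deposits the replacement histone of the H3 family, had PLAG1-S at 41.4 in clone 4 and 36.8 in clone 5 and USF2 at 26.8 and 23. CHAF1A, of the assembly factor that acts at replication forks, had PLAG1-S at 19.0 and 15.6 and USF2 at 9.64 and 5.38. SUPT16H, of the FACT complex, had PLAG1-S at 23.7 and 14.4 and USF2 at 8.94 and 8.39. In all 5 genes the PLAG1-S fold was larger than the USF2 fold in both clones, as at most protein-coding genes with both factors. HJURP and ATRX had no reproducible peak.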
